A study of Homo sapiens with 3 samples.

Results

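The circular RNAs (circRNAs) described here had a value of 0 in J82 and a value above 0 in both SV-HUC-1 and T24. Of 10562 listed circRNAs, 598 (5.66%) met this rule, and they came from 518 annotated host genes, with 26 left without a host gene in the table. They were chosen by their CPM values in the 3 libraries, so their absence from J82 is a description and not a finding. Each line gave 1 library, with no genotype change and no treatment in the labels. SV-HUC-1 comes from immortalized urothelium, whereas J82 and T24 are classed as bladder cancer lines. Ribosomal RNA was removed from all 3 RNA samples, and linear RNA was digested with RNase R, so host transcripts themselves were not measured.

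A circRNA forms when the spliceosome joins the end of an exon back to the start of the same or an earlier exon, which leaves a closed ring without free ends. Such rings resist exonucleases and build up when a gene is transcribed and its introns favour back-splicing. One gene can give several rings, so a missing ring can go with a host gene that gives no rings at all, or with a host gene that still gives others. Circular reads alone cannot separate less transcription, less back-splicing, fewer gene copies and faster loss.

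SV-HUC-1 gave 128055 circRNA reads, J82 gave 126041 and T24 gave 108574, and 1 read was worth 0.0201, 0.0211 and 0.0234 CPM, the authors' normalized read count (reads scaled to library size). A count of 0 in J82 allows up to 3 reads, or 0.0634 CPM. With 1 library per line, no difference has a replicate check. Ratios below are ratios of CPM with exact 95% Clopper-Pearson intervals that cover counting error only, since the reads carry no molecular identifiers. A ratio to J82 is set against 3 reads and written "at least", without the counting error of the other library. Read counts set in threes are in the order SV-HUC-1, J82, T24. Positions are on hg19 as the table gives them. Epithelial genes gave few circular reads in T24: EPCAM, an epithelial adhesion molecule, had 45, 8 and 0 reads, and CDH1, which encodes E-cadherin, had 20, 8 and 0. KRT7, a keratin of simple epithelia and urothelium, had 7, 17 and 3.

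Among host genes with no circular read in J82, SMO and EVC2 had the most reads in T24 and in SV-HUC-1 at once, at least 42 in each. Smoothened, the product of SMO, is the membrane protein that passes the hedgehog signal into the cell, and EVC2 forms part of a complex at the base of the primary cilium that acts with it. Their upstream sequences are shown because every listed circRNA of both genes was at 0 in J82. They come from RefSeq on GRCh38.p14, a different build from that of the circRNA positions, and span the 250 bases before the annotated start. Capitals mark the GC box GGGCGG or its reverse complement CCGCCC, the motif of SP and KLF factors.
SMO: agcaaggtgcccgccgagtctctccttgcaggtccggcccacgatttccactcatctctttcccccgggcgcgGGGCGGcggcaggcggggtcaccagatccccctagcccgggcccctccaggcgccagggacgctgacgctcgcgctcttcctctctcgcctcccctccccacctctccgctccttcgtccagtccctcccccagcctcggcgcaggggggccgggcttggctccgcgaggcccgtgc
EVC2: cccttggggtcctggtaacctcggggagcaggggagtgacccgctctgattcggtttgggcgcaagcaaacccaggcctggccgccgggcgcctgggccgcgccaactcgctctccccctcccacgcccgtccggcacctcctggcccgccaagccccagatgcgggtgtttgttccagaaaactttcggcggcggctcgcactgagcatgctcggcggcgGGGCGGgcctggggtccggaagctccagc
The SMO stretch lies at chr7:129188383-129188632 on the plus strand and the EVC2 stretch at chr4:5708560-5708809 on the minus strand. Each held 1 GC box, searched on both strands, and 42.6% of the 35116 promoters in the table held at least 1. The SMO stretch had 25 CpG dinucleotides and 73.6% G or C, and the EVC2 stretch 24 and 71.2%, against medians of 11 and 58% over all promoters. A motif match is only a description of these letters. Of the 518 host genes, 411 matched the promoter table by symbol. WSCD1, also at 0 in J82, has several starts there and none was chosen.

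The circRNA of SMO (hsa_circ_0001742, chromosome 7, 128845043 to 128846428, plus strand) had 80, 0 and 41 reads, or 1.61, 0 and 0.96 CPM. The other SMO circRNA (hsa_circ_0133271) ends at the same position and had 6, 0 and 1 reads. The leading EVC2 circRNA (hsa_circ_0004228, chromosome 4, 5664833 to 5667376, minus strand) had 77, 0 and 40 reads, or 1.55, 0 and 0.936 CPM. A second one (chromosome 4, 5624263 to 5624718) had 7, 0 and 2, and the remaining one, outside the rule, had 8, 0 and 0. Against T24, J82 was at least 15.1-fold lower for the leading SMO circRNA and at least 14.8-fold lower for that of EVC2. T24 stood below SV-HUC-1 for both, at a ratio of 0.598 (0.400 to 0.882) for SMO and 0.606 (0.403 to 0.899) for EVC2. The rule fixed the 0 in J82 for both, so only the lower values in T24 are a comparison here.

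Other hedgehog genes gave circular reads in J82. Of 33 hedgehog pathway genes on a list chosen with earlier results known, 12 gave listed circRNAs. Of these, 8 had at least 10 reads, summed by host gene, in J82 or SV-HUC-1. By the threshold of a 2-fold difference, 3 of the 8 were lower in J82 (SMO, EVC2 and GPR161) and PRKACB was higher. The median log2 fold was -0.12. The rule chose SMO and EVC2 circRNAs by their 0 in J82, so the count and median are not free of it. Of the 3, only GPR161 had no circRNA in the set. Over all 2647 host genes compared, 19.5% were lower and 18.4% higher, with a median of -0.03. GLI3, a transcription factor at the end of the pathway, had 16, 15 and 16 reads. GPR161, a ciliary receptor that restrains the pathway, had 15, 2 and 3. PRKACB, a catalytic subunit of protein kinase A, had 0, 12 and 0. DYNC2H1, the heavy chain of the dynein that carries cargo back along the cilium, had 25, 31 and 54 in all, although 1 of its circRNAs (hsa_circ_0024144) had 2, 0 and 6 and met the rule. In T24 against SV-HUC-1, 2 of 8 hedgehog genes were higher and 2 lower (median -0.34), against 18.7% and 22.1% of 2616 host genes.

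**Figure D1:**
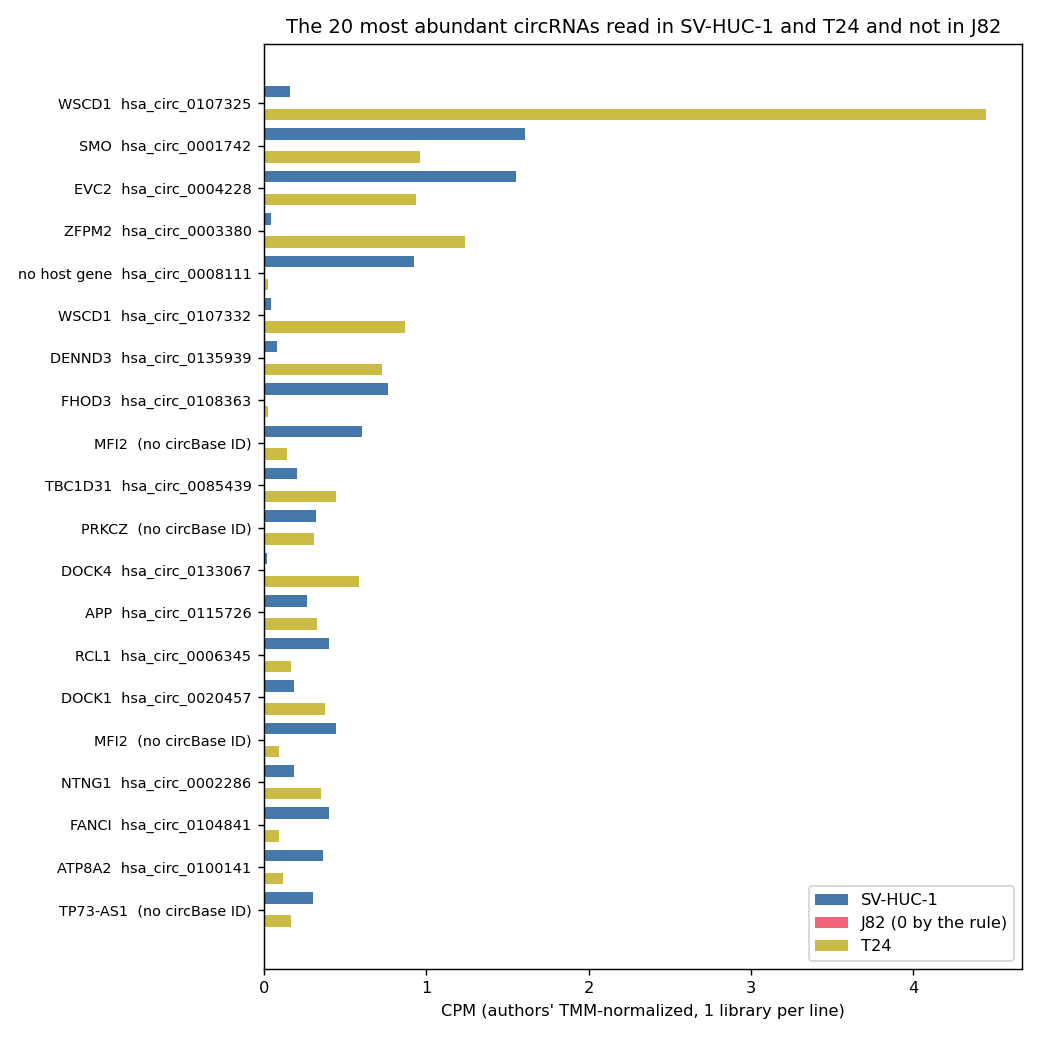
CPM in each line for the 20 circRNAs with the largest sum of CPM in SV-HUC-1 and T24 among those at 0 in J82, 1 library per line and so no error bars. WSCD1 stands out in T24 at 4.45 CPM, and SMO and EVC2 lead in SV-HUC-1 at 1.61 and 1.55 CPM.

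Most of the 598 circRNAs were rare. The median was 5 reads, both in the SV-HUC-1 library and in that of T24, with ranges of 1 to 80 and 1 to 190. Together they held 2.50% of circular reads in the SV-HUC-1 library and 2.83% in that of T24. In 82 of them at least 1 of these lines had 10 or more reads, and in 5 both had. In 194 the CPM of both lines lay above the 0.0634 CPM that a count of 0 in J82 allows. For the other 404 the 0 in J82 does not set it below both lines at this depth.

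The 20 most abundant held 13.8% of the reads of the set in SV-HUC-1 and 17.2% in T24, and 16 of them had a circBase ID. For 5 of the 20 the interval of the T24/SV-HUC-1 ratio lay above 1, for 8 below 1, and for 7 it held 1. Of these 20, more thus leaned to 1 of the lines than had an interval that held 1. The plot of reads in SV-HUC-1 and T24 shows the whole set.

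**Figure D2:**
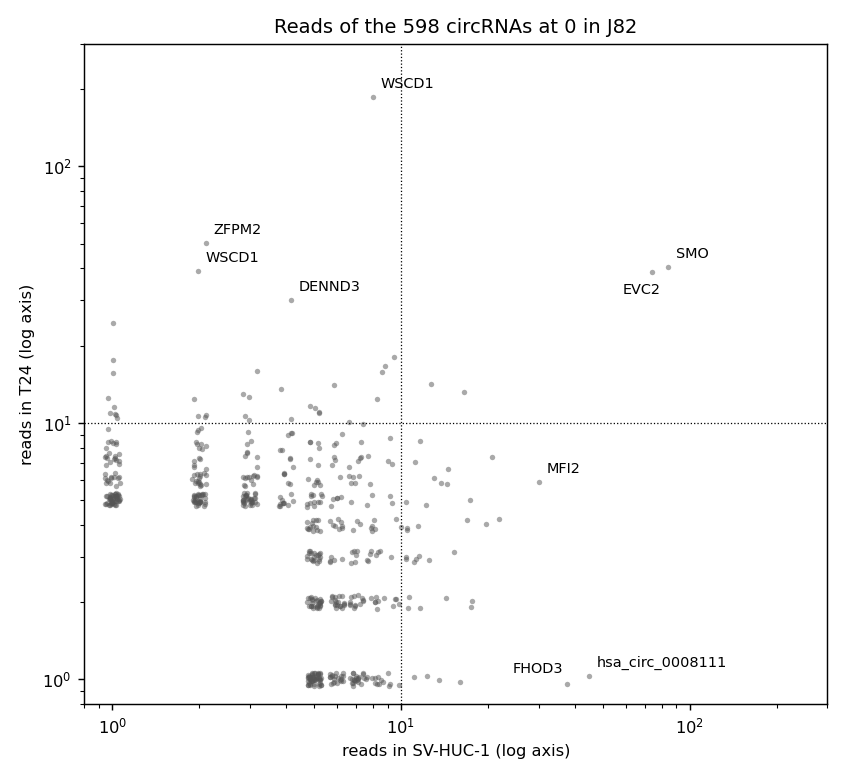
Reads in the SV-HUC-1 library (horizontal) and the T24 library (vertical; log axes, points spread slightly at random) for each of the 598 circRNAs at 0 in J82, with dotted lines at 10 reads. SMO and EVC2 are far to the upper right, WSCD1 and ZFPM2 were read mainly in T24, and FHOD3 and hsa_circ_0008111 mainly in SV-HUC-1.

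WSCD1, which encodes a WSC domain protein, gave the most abundant circRNA of the set (hsa_circ_0107325, chromosome 17, 5983690 to 5998543, plus strand), with 8, 0 and 190 reads. Its second circRNA (hsa_circ_0107332) shares the end position and had 2, 0 and 37 reads. T24 was 27.7-fold (13.8 to 65.1) higher than SV-HUC-1 for the first and 21.6-fold (5.57 to 185) higher for the second. Set against J82, T24 was higher by at least 70.1-fold for the first and by at least 13.7-fold for the second. Both listed circRNAs of WSCD1 therefore had their reads almost wholly in T24.

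ZFPM2, a cofactor of GATA transcription factors (hsa_circ_0003380), had 2, 0 and 53 reads, a T24/SV-HUC-1 ratio of 30.9 (8.14 to 262). With 2 reads, SV-HUC-1 lay under the J82 limit, so that no difference between SV-HUC-1 and J82 was detectable. DENND3, an exchange factor for a Rab GTPase (hsa_circ_0135939), had 4, 0 and 31 reads, a ratio of 9.04 (3.20 to 35.2). DCDC2, a doublecortin domain protein of cilia (no circBase ID), had 1, 0 and 17 reads, a ratio of 19.8 (3.11 to 829). In DCDC2 as in ZFPM2 SV-HUC-1 lay under the J82 limit, whereas the 4 reads of DENND3 (0.0803 CPM) lay just above it. With so few reads that difference was not beyond counting error.

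The opposite end of the set was read mainly in SV-HUC-1. A circRNA without an annotated host gene, whose circBank ID names the adhesion molecule KIRREL3 (hsa_circ_0008111), had 46 reads there, 0 in J82 and 1 in T24, and was 39.4-fold (6.73 to 1591) higher in SV-HUC-1 than in T24. FHOD3, a formin that assembles actin filaments (hsa_circ_0108363), had 38, 0 and 1, a ratio of 32.6 (5.51 to 1320). MFI2, which encodes the iron-binding membrane protein melanotransferrin, gave a pair of circRNAs that share the start position 196742235, with 30, 0 and 6 reads and 22, 0 and 4. ALOX15P1, a pseudogene whose reads could be shared with its parent gene, had 16, 0 and 1. KIAA1671 and PPP2R3A, a regulatory subunit of protein phosphatase 2A (hsa_circ_0122045), each had 13, 0 and 1. For FHOD3, KIRREL3 and these last genes, a single read in T24 decided that the circRNA was absent only from J82 and not from both cancer lines.

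For 5 of the leading circRNAs SV-HUC-1 and T24 each had at least 9 reads and the interval of their ratio held 1. PRKCZ, the atypical protein kinase C of cell polarity (chromosome 1, 2100956 to 2106752, plus strand), had 16, 0 and 13 reads, a ratio of 0.948 (0.419 to 2.1). APP, the amyloid precursor protein (hsa_circ_0115726), had 13, 0 and 14, a ratio of 1.26 (0.548 to 2.90). DOCK1, an activator of the GTPase RAC (hsa_circ_0020457), had 9, 0 and 16, and NTNG1, an axon guidance protein (hsa_circ_0002286), had 9, 0 and 15. TBC1D31, a TBC domain protein of the centrosome region (hsa_circ_0085439), had 10, 0 and 19, a ratio of 2.22 (0.980 to 5.33). These intervals are wide, so equal levels are not shown, and TBC1D31 passed the 2-fold threshold.

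RCL1, a factor of ribosomal RNA processing (hsa_circ_0006345), had 20, 0 and 7 reads. FANCI, a protein of the Fanconi anaemia repair pathway (hsa_circ_0104841), had 20, 0 and 4. ATP8A2, a phospholipid flippase (hsa_circ_0100141), had 18, 0 and 5. TP73-AS1, a long noncoding RNA antisense to TP73, had 15, 0 and 7, and the labels do not say whether counting used strand. T24 was lower than SV-HUC-1 for FANCI (ratio 0.233, 0.0580 to 0.696) and ATP8A2 (0.324, 0.0940 to 0.905), and the intervals for RCL1 and TP73-AS1 held 1.

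Over the set, T24 and SV-HUC-1 were compared for the 82 circRNAs with at least 10 reads in 1 of these lines, on log2(CPM + 0.0234). Of these, T24 exceeded SV-HUC-1 by 2-fold or more for 31 and fell below it by 2-fold or more for 31. Over all 3847 circRNAs compared, 21.4% were higher and 27.3% lower. The read filter lets a rare circRNA through mainly when 1 line is high, so this count says nothing of the other 516. Only 5 of the 82 had at least 10 reads in both lines, so the filter itself favours a split between the lines. Shares above those of all circRNAs are therefore not a result about the set, also at the other thresholds on filtered circRNAs below. Without the filter, 187 of the 598 were higher and 176 lower, against 24.6% and 27.6% of all 10562. At a 4-fold threshold, 19 of the 82 were higher and 10 lower, against 7.75% and 12% of all circRNAs. With a filter of 20 reads, 5 of 13 were higher and 6 lower, against 18.9% and 25.7%. In J82 against SV-HUC-1, all 47 with at least 10 reads in SV-HUC-1 were lower, which the rule fixes, against 23.3% lower of all 3996 circRNAs compared. The recovered reads were also put through edgeR's quasi-likelihood test, with J82 against SV-HUC-1 and T24 as 1 group and Benjamini-Hochberg adjustment. Of 4513 circRNAs it called 13 higher (0.288%) and 9 lower (0.199%) in J82, among them 4 of the 82, those of WSCD1 (hsa_circ_0107325), SMO, EVC2 and ZFPM2. The rule used this contrast, so the calls only describe these libraries.

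How often a circRNA was missing from 1 line fell with its read support in the other lines. Of 7981 circRNAs read in SV-HUC-1 and T24, 7.49% were at 0 in J82. The share was 17.6% where those lines together had 6 to 9 reads, 7.03% at 10 to 19, 1.30% at 20 to 49 and 0.447% (4 of 895) at 50 or more. Those 4 were WSCD1, SMO, EVC2 and ZFPM2. By the same rule 590 circRNAs were missing only from SV-HUC-1 (7.40% of 7973) and 1016 only from T24 (12.1% of 8399), the library with the fewest circRNA reads. At 20 to 49 reads the shares were 1.47% and 4.78%.

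**Figure D3:**
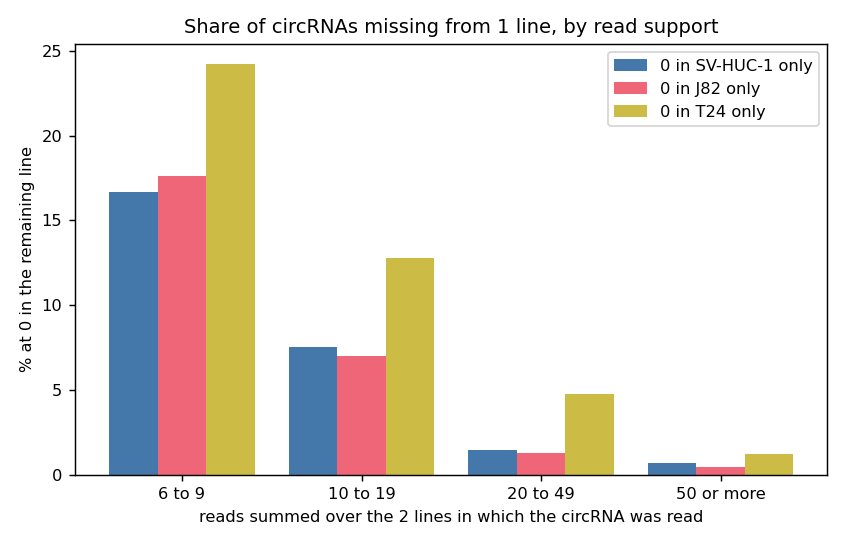
Percentage of circRNAs at 0 in 1 line among those read in both others, by the reads summed over those others. J82 falls from 17.6% to 0.447% and runs close to SV-HUC-1, while T24 is higher in every bracket.

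At the edge of the rule, 95 circRNAs had only 6 reads summed over SV-HUC-1 and T24, the fewest in the set. Just outside, 622 circRNAs had 1 read in J82 and reads in both other lines. The most abundant of these came from DOCK4 (hsa_circ_0005937), with 11, 1 and 61 reads. ARHGAP29, a GTPase-activating protein (hsa_circ_0003310), had 22, 1 and 20. IL27RA, a cytokine receptor chain, had 32, 1 and 11, RNF213, a ubiquitin ligase, 19, 1 and 16, and EPHB2, an ephrin receptor, 28, 1 and 6. The other 5 of the 10 leading neighbours, which include circRNAs of SERGEF, CSE1L, FANCC and KLHDC4, had between 10 and 29 SV-HUC-1 reads and between 1 and 18 T24 reads. Their values overlap those of circRNAs inside the rule.

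Most host genes still gave other circRNAs in J82. Of the 518, 357 (68.9%) had other listed circRNAs with reads in J82, 10 had others that were also at 0, and 151 had no other listed circRNA. The same split was not counted over other host genes, so it is only a description of these. Summed over all circRNAs, 161 host genes had no read in J82, of which 20 had more than 1 listed circRNA. Of all host genes read in SV-HUC-1 and T24, 162 of 3521 (4.60%) were at 0 in J82, against 4.22% at 0 only in SV-HUC-1 and 7.85% at 0 only in T24.

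Among host genes at 0 in J82, WSCD1 summed to 10, 0 and 227 reads, EVC2 to 92, 0 and 42, SMO to 86, 0 and 42, and MFI2 to 57, 0 and 10. ATP8A2 summed to 43, 0 and 5, with 3 further circRNAs read only in SV-HUC-1. RIMS2, a scaffold of the presynaptic active zone, had 3 circRNAs, all of them in the set, with 4, 0 and 14 reads for the first, 11, 0 and 3 for the second and 1, 0 and 5 for the last. Its sum of 16 reads against 22 gave a T24/SV-HUC-1 ratio of 1.60 (0.804 to 3.27), while its single circRNAs leaned to different lines.

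In other host genes a ring was missing while its neighbours were read. RCL1 has a second circRNA, with 14, 22 and 22 reads. The other circRNAs of APP summed to 83, 35 and 90 reads, and those of DOCK1 to 150, 105 and 165. TBC1D31 has a shorter circRNA from the same start position (hsa_circ_0085438), with 42, 9 and 38 reads. The other circRNAs of FANCI summed to 40, 13 and 18, those of PRKCZ to 18, 10 and 15, and those of DENND3 to 19, 10 and 56. FHOD3 had 100, 9 and 1 beside its missing ring, so the whole host gene was low in both cancer lines.

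The 10 host genes whose other circRNAs had the most reads in J82 were TRIO, UBAP2, PVT1, PHKB, ARHGEF28, UIMC1, GNB1, ADARB1, EHMT1 and VAPB, with 185 to 768 reads there. Each had 1 circRNA in the set, which had 1 to 9 reads in the SV-HUC-1 library and 1 to 7 in T24. TRIO, an exchange factor for small GTPases, had 768 reads in J82 from 23 other circRNAs, and its missing circRNA (hsa_circ_0071894) had 5 reads in each other line. PVT1, a long noncoding RNA gene, had 367 reads in J82, and its missing circRNA had 8 in SV-HUC-1 and 5 in T24. In these genes the missing ring was a minor one.

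The values of the other circRNAs of the host genes were not used by the rule, but their genes were chosen by a 0 in the same J82 library. This comparison is therefore not free of the rule and is only a description. These other circRNAs stood lower in J82 than the circRNAs of the remaining host genes. With at least 10 reads in J82 or SV-HUC-1, 508 of them were compared: 151 (29.7%) stood 2-fold or more below SV-HUC-1 and 69 (13.6%) 2-fold or more above it, and the median log2 fold was -0.41. Over all circRNAs compared, 23.3% were lower and 22.9% higher. At a 4-fold threshold, 42 of the 508 were lower and 25 higher, against 8.01% and 9.01% of all. With a filter of 20 reads, 61 of 220 were lower and 24 higher, against 20.8% and 21.2%, and without a filter 342 of 1326 were lower and 240 higher, against 24.8% and 25.1%. At the 4-fold threshold and without a filter, the share that was lower thus lay near that of all circRNAs, and the share that was higher lay below it. Over the 3372 circRNAs of host genes with no circRNA in the set, 20.8% were lower and 24.5% higher, with a median of 0.07. Against T24, which shares the J82 library with this comparison, 26.3% of 467 were lower and 15.2% higher (median -0.27), against 17.2% and 26.9% of 3114 (median 0.21). Between T24 and SV-HUC-1, 25.5% of 538 were lower and 20.1% higher in T24, close to the 27% and 21.1% of the 3160 others.

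**Figure D4:**
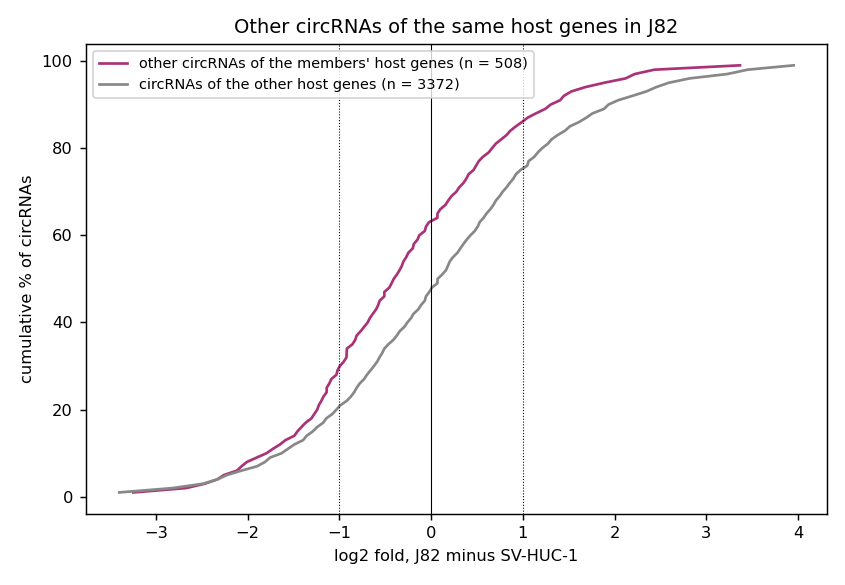
Cumulative percentage of circRNAs by log2 fold of J82 against SV-HUC-1, for other circRNAs of the same host genes (n = 508) and circRNAs of the remaining host genes (n = 3372). The first curve lies to the left, with medians of -0.41 and 0.07, and the dotted lines mark a 2-fold difference. The host genes of the first curve were chosen by a 0 in the same J82 library.

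CircRNAs of 1 host gene are not independent, and some share a splice site with a missing ring. Among the 353 that share no start or end with a circRNA of the set, 27.5% were lower and 13.6% higher. Summed by host gene, 52 of 279 (18.6%) were lower and 25 (8.96%) higher, with a median of -0.31. Each of these host genes has more than 1 listed circRNA. Of the 1738 such host genes without a circRNA in the set, 13.5% were lower and 20.2% higher, with a median of 0.12. The other circRNAs were detected in J82 about as often as circRNAs in general, 93.7% of 1326 against 94.0% of all 9733 with a host gene outside the set. With 1 library per line there is no test of these differences.

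The set held 2 or more circRNAs of 48 host genes, 43 of them with a pair, 4 with 3 and DOCK1 with 4. DOCK1 and DOCK4 encode related exchange factors that activate small GTPases in cell migration. The 4 of DOCK1 had between 4 and 9 reads in SV-HUC-1 and between 1 and 16 in T24, beside 11 others with 105 reads in J82. Of DOCK4, hsa_circ_0133067 had 1, 0 and 25 reads, hsa_circ_0081979 had 3, 0 and 13, and hsa_circ_0081983 had 1, 0 and 8. DOCK4 as a whole had 16, 1 and 158 reads, a T24/SV-HUC-1 ratio of 11.5 (6.88 to 20.6). MYOF, a ferlin of membrane repair, had a pair that summed to 16, 0 and 14 reads, and its others to 65, 75 and 68. RUNX1, a transcription factor of blood formation that epithelia also express, had 3 circRNAs in the set, with 11, 0 and 1 reads, 7, 0 and 2, and 5, 0 and 1. Its 7 others summed to 463, 46 and 26, so RUNX1 was low in both cancer lines. The 3 of CNTNAP3 are uncertain, since near-identical copies of that gene can share reads.

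Splice sites of the missing rings were shared with other rings less often than those of listed circRNAs in general. Of the 598, 277 (46.3%) shared a start or an end with another listed circRNA. The share was 55.6% among circRNAs with under 20 summed reads that were read in every line, and 55.8% among all listed circRNAs. For 235 (39.3%) at least 1 of the ends was read in J82 within another circRNA, and for 30 (5.02%) both ends were. The same shares in J82 were not counted over other circRNAs. BARD1, the partner of BRCA1 (hsa_circ_0058049), had 8, 0 and 2 reads, while 52 reads in J82 used its start and 28 its end. MSH3, a mismatch repair protein (hsa_circ_0129807), had 10, 0 and 5, with 9 and 42. DAGLB, a diacylglycerol lipase (hsa_circ_0005601), had 8, 0 and 13, with 16 and 2. In these genes the same ends were read in J82 within other rings. These 3 were chosen after their values were seen.

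By lists of host genes, the set touched actin and adhesion genes most in number, 9 of 33 listed. The lists differ in length and were chosen with earlier results of these data known. Where a list holds host genes of the set, its J82 counts are not free of the rule. Over all 4231 listed host genes, 518 (12.2%) had a circRNA in the set, and genes with more circRNAs have more chances to. Among them were FHOD3, FMNL2, PARD3, ARHGAP5, DOCK1, DOCK4, TRIO and TIAM1. TIAM1, a RAC exchange factor (hsa_circ_0115787), had 11, 0 and 3 reads, while the host gene as a whole had 57, 94 and 32. In J82 against SV-HUC-1, 6 of 27 genes on that list were lower and 4 higher (median log2 fold -0.43), against 19.5% and 18.4% of all host genes. FMNL2, a formin, had 29, 5 and 26 reads in all, and its circRNA in the set (hsa_circ_0056734) had 3, 0 and 5. In T24 against SV-HUC-1, 10 of 26 were lower and 7 higher (median -0.03), against 22.1% and 18.7% of all host genes.

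Of 40 listed chromatin regulators, 7 had a circRNA in the set, beside 12.2% of all host genes: EP300, CREBBP, SMARCC1, CHD1, SETD2, EHMT1 and SETDB1. The ring of the acetyltransferase CREBBP (hsa_circ_0037654) had 4, 0 and 9 reads, and that of EP300, its close relative (hsa_circ_0007297), 5, 0 and 8. In J82, 4 of 36 genes of the list were lower and 4 higher (median -0.17), and in T24 6 were lower and 5 higher (median -0.05). Over all host genes compared, 19.5% were lower and 18.4% higher in J82, and 22.1% were lower and 18.7% higher in T24. Of 32 listed growth factor receptor and kinase genes, 5 hosted circRNAs of the set, beside the same 12.2%, among them MET, MAP3K5 and PRKCA. MAP3K5, a stress kinase also called ASK1 (hsa_circ_0006554), had 3, 0 and 16 reads, although its circRNAs together had 18, 74 and 98. In J82, 2 of 24 were lower and 8 higher (median 0.25), and in T24 3 of 23 were lower and 4 higher (median -0.18).

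Of 13 listed neuronal and synaptic genes, RIMS2, CACNA2D3 and UNC13B had circRNAs in the set. Beside the counts of this paragraph, 12.2% of all listed host genes had a circRNA in the set. Of all host genes compared, 19.5% were lower and 18.4% higher in J82, and 22.1% were lower and 18.7% higher in T24. UNC13B, a priming factor of vesicle release, had 2, 0 and 10 reads. In J82, 1 of 6 genes on that list was lower and 2 higher (median 0.88), and in T24 3 were higher and 0 lower (median 1.2). The lower one in J82 was RIMS2, whose circRNAs the rule chose by their 0 there. Of 12 mesenchymal and matrix genes, SPARC had 6, 0 and 1 reads and TNC, or tenascin C, 4, 0 and 6. In J82, 4 of 7 were lower and 2 higher (median -1.57), and in T24 3 were lower and 3 higher (median 0.81). None of the 16 listed epithelial and urothelial genes had a circRNA in the set. In J82, 7 of 14 were lower and 2 higher (median -1.04), and in T24 all 13 compared were lower (median -4.18), 13 of 13 below SV-HUC-1. Of 17 blood and endothelial genes only RUNX1 and FLI1 were listed, and both were lower in J82 (median -2.36), and 1 of them in T24 (median -1.57).

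The 598 circRNAs were less often catalogued than listed circRNAs in general. A circBase ID was given for 438 (73.2%), against 86.2% of all listed circRNAs. It was 90.2% of the 4827 read in every line with under 20 reads in SV-HUC-1 and T24 together. Those 4827 were not matched to the set in read counts. The shares were 79.0% for circRNAs missing only from SV-HUC-1 and 76.4% for those missing only from T24. The median distance between back-spliced ends was 5269 bases, against 6050.5 over all, 7728 for those missing only from SV-HUC-1 and 7151.5 for those missing only from T24. Distances ran from 210 to 270357 bases. Of the set, 20 (3.34%) spanned 50 kb or more, against 7.12% and 5.61% in the sets of the other lines, and 32 (5.35%) spanned under 500 bases. No annotated host gene was given for 4.35%, against 2.43% over all.

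By chromosome, the share at 0 in J82 among circRNAs read in SV-HUC-1 and T24 ran from 4.46% on chromosome 4 (12 of 269) to 12.1% on chromosome 10 (39 of 323, from 30 host genes). Chromosome 21 stood at 11.2% (11 of 98) and chromosome 8 at 9.29% (30 of 323). Among circRNAs read in every line, which the rule leaves out, the median log2 fold of J82 against SV-HUC-1 was -0.51 on chromosome 10 and 0.88 on chromosome 4. It was -0.62 on chromosome 22, where 9.20% were at 0. The median was -0.13 on chromosome 21 and 0.16 on chromosome 8, and 0.07 on chromosome 14, where 9.23% were at 0. A high share at 0 thus did not always go with a low median. Against T24 the medians on chromosomes 10 and 4 were 0.06 and 0.21, with 0.09 over all chromosomes. On chromosome 10, 5.33% were at 0 only in SV-HUC-1 and 16.2% only in T24. CircRNAs of chromosome 10 in the set came, besides DOCK1, from MYOF with 14, 0 and 6 reads, and from TNKS2, or tankyrase 2, with 9, 0 and 9. These were picked after their values were seen. Gene copy number was not measured, so its part was not tested, and 4 circRNAs on the Y chromosome or on alternative haplotype sequences were left out of this comparison.

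**Figure D5:**
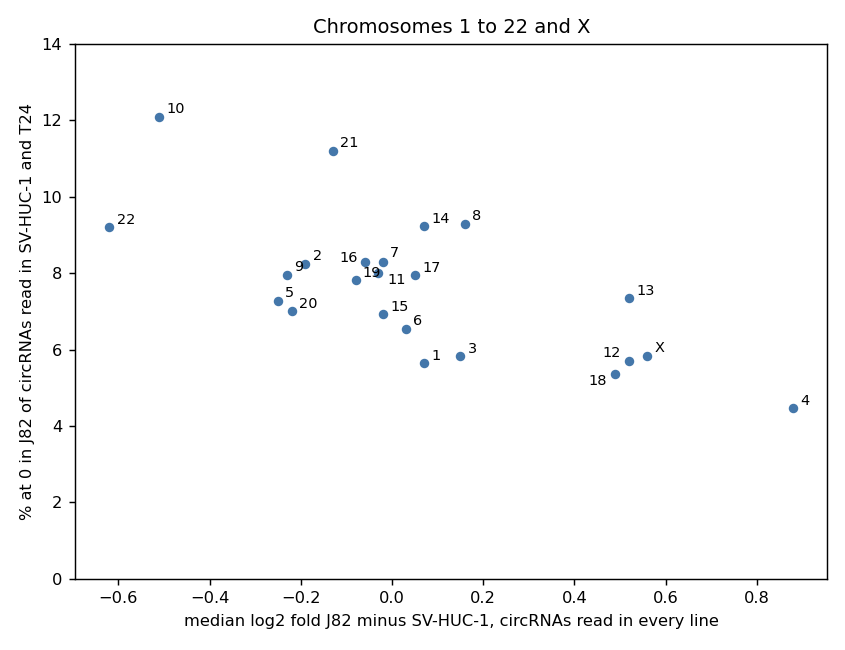
For chromosomes 1 to 22 and X, the percentage at 0 in J82 of circRNAs read in SV-HUC-1 and T24 (vertical) against the median log2 fold of J82 minus SV-HUC-1 of circRNAs read in every line (horizontal). Chromosome 10 is highest at 12.1% with a median of -0.51, and chromosome 4 lowest at 4.46% with 0.88, and both axes share the J82 and SV-HUC-1 libraries.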

How the data were processed

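CircRNAs were profiled in SV-HUC-1, J82 and T24 with 1 library each, made from 2 μg of total RNA per the labels' protocols. The authors deposited 1 table of CPM values, named as TMM-normalized. Per the submitters' processing notes, coordinates are on hg19 and the tools were STAR, edgeR, RSEM 1.2.15 and Bowtie2 2.1.0, whose roles are not stated. The caller of back-splice junctions, its strand setting and the counting of start positions from 0 or 1 are not given in the sources used here. Each of the 3 columns of values carries the name of a line, with SV-HUC-1 spelled differently.

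Each CPM value divided by its column's smallest value above 0 was whole within 0.01 reads (100% of values), which gave the reads used here. Every listed circRNA had at least 5 reads in 1 library. Folds are differences of log2(CPM + 0.0234), 1 read in the shallowest library, for circRNAs with at least 10 reads in 1 of the lines compared, and a 2-fold difference was the threshold. A 0 entered these folds as 0, and was set to 3 reads only for ratios written "at least". An exact two-sided binomial test of the reads (SciPy 1.17.1, Benjamini-Hochberg adjusted p under 0.05) and edgeR 4.0.16 in R 4.3.3 were alternatives. In edgeR, J82 was set against both other lines with 1 residual degree of freedom and the lone J82 library is assumed to vary like the others. Both were also run on simulated reads with counting error only, which cannot check the spread between different lines.

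Named were the 20 circRNAs with the largest summed CPM in SV-HUC-1 and T24, the 5 highest and 5 lowest in T24 against SV-HUC-1, the 10 host genes with the most reads among those with 2 or more circRNAs in the set, host genes on the 8 fixed lists, the 10 host genes with the most other reads in J82, and the 10 leading circRNAs with 1 read in J82. Some named genes are not reported here. Members and lists were chosen with earlier results of these data known.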

Additional observations from a re-analysis of the deposited data

Results flagged for a closer look

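The circRNA of WSCD1 (hsa_circ_0107325) moved in opposite directions in the cancer lines against SV-HUC-1, with 8, 0 and 190 reads. T24 was 27.7-fold (13.8 to 65.1) higher than SV-HUC-1, and the upper 95% counting limit of the ratio of J82 to SV-HUC-1 was 0.617. Both ratios share the SV-HUC-1 library, the rule fixed the 0 in J82, and the difference between the lines was not tested.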

How the results depend on the processing

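The size of the set depends on the reads asked for. In place of 598 circRNAs, 83 remained with at least 5 reads in both SV-HUC-1 and T24, 82 with at least 10 reads in 1 of them, 1220 were found with at most 1 read in J82, and 162 host genes were at 0 only in J82. Of those 82, edgeR called 4, against 22 at an unadjusted p under 0.05, but the rule used this contrast and 2 different lines stand in for replicates, so these counts support nothing. Against 31 higher and 31 lower in T24 than in SV-HUC-1, there were 187 and 176 of 598 without a read filter (all circRNAs 24.6% and 27.6%), 5 and 6 of 13 with a filter of 20 reads (all 18.9% and 25.7%), and 19 and 10 of 82 at a 4-fold threshold (all 7.75% and 12%). The exact binomial test called 22 higher and 17 lower of the 82, against 658 higher and 782 lower of all 3847 circRNAs (37.4% in either direction). Most of the 82 passed the read filter through 1 line only, so these counts are only a description. For the other circRNAs of the host genes in J82, the 69 higher and 151 lower of 508 became 240 and 342 of 1326 without a filter (all circRNAs 25.1% and 24.8%), 24 and 61 of 220 with a filter of 20 reads (all 21.2% and 20.8%), 25 and 42 of 508 at 4-fold (all 9.01% and 8.01%), and 25 and 52 of 279 when summed by host gene. Among those sharing no splice site with the set, 48 were higher and 97 lower of 353. The settings differ in the circRNAs compared or in the threshold, and the reason for each change was not tested. For the other circRNAs of the host genes, the share lower in J82 lay near that of all circRNAs at 4-fold and without a filter. Lower circRNAs outnumbered higher ones under each of these settings for the host gene comparison. The rule chose these host genes by a 0 in the same J82 library, so this is only a description. Other pseudocounts and scalings kept every count within 1.5 times, and all 96 values of named circRNAs under them stayed within their counting intervals. The edgeR test and the last pair of settings for host genes were chosen after seeing the data. No paired analysis was possible because each line has 1 library. Depth limits most of the set, since 404 of 598 did not exceed the J82 limit in both other lines.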
